A study of Mus musculus with 23 samples.

Results

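The 8 genes described here make up a short cut through the oxygen-sensing pathway, from sensor to output: the 3 alpha subunits of the hypoxia-inducible factors (HIF), Hif1a, Epas1 (HIF-2 alpha) and Hif3a; the prolyl hydroxylases Egln1 (PHD2) and Egln3 (PHD3); and the hypoxia targets Adm, Bnip3 and Ankrd37. They were taken by gene symbol out of 29894 genes listed in the tables of 3 mouse tissues. The choice was made with their values under oxaliplatin and vehicle known, so those values are given as a description. Where members called in that comparison are counted, the counts are no test of the members. C57BL/6 mice, an inbred strain, received either vehicle or oxaliplatin, a platinum drug used against colorectal cancer, at 10 mg/kg, and tissue was taken after 8 weeks. The labels name no genetic change in either arm. RNA was sequenced from tibialis anterior muscle (5 oxaliplatin and 4 vehicle libraries), subcutaneous white fat (4 and 3) and hypothalamus (4 and 3). Each library is 1 sample of 1 tissue, named below by its mouse number. The labels do not state whether libraries of different tissues with the same number come from 1 animal.

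Cells make HIF alpha subunits all the time, and with oxygen present the EGLN enzymes hydroxylate them on proline, the VHL ubiquitin ligase binds the hydroxylated form, and the protein is degraded. When oxygen falls, the alpha subunit persists, pairs with ARNT and binds DNA at hypoxia response elements, short sites with the core ACGTG or GCGTG. Regulation of HIF1A and EPAS1 is thus mainly at the level of the protein, while Hif3a, Egln3, Adm, Bnip3 and Ankrd37 are known as genes whose transcripts increase when HIF is active. The measurement here is of RNA, so it reports on the targets and not on how much HIF protein was present. Some of these targets also respond to other regulators, Bnip3 to FOXO factors and Adm to cytokines.

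All 8 genes had enough counts to be tested in all 3 tissues. On mouse build GRCm38, Hif1a lies at chr12:73901375-73947530 (plus strand), Epas1 at chr17:86753700-86833410 (plus), Hif3a at chr7:17031507-17062427 (minus) and Egln1 at chr8:124908587-124949324 (minus). Egln3 lies at chr12:54178981-54203860 (minus), Adm at chr7:110627661-110629820 (plus), Bnip3 at chr7:138890836-138909519 (minus) and Ankrd37 at chr8:45996902-46005707 (minus). Exons of a gene on the opposite strand cover 22.3% of the exon bases of Bnip3 (Gm45507), 22.7% of those of Ankrd37 (Lrp2bp) and 5.60% of those of Hif1a (Gm15283). The strand setting of the authors' counting was not given in the sources used here. Part of the counts of these 3 genes could thus come from the partner.

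The sequences just before the start sites of 5 members are shown because their mean level was higher with oxaliplatin in each of the 3 tissues and HIF binds a known core. Letters run 5′ to 3′ along the gene's own strand, from 250 bases before the RefSeq start (build GRCm38.p6) up to the start or to the first annotated exon base, and capitals mark ACGTG or GCGTG read on either strand. The RefSeq start can differ from the end of the gene span given above. The Ankrd37 window, and the Hif1a window counted below, lie inside those spans.
Hif3a promoter, chr7:17062428-17062677, minus strand: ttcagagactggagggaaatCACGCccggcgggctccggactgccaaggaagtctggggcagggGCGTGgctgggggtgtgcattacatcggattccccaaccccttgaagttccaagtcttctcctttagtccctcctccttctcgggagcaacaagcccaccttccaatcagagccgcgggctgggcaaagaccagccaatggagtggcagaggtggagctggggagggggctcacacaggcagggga
Egln3 promoter, chr12:54203875-54204124, minus strand: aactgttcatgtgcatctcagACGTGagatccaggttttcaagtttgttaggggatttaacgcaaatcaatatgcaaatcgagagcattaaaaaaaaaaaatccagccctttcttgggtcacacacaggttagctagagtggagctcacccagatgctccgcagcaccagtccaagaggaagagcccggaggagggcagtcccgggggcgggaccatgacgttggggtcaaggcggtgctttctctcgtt
Adm promoter, chr7:110627407-110627656, plus strand: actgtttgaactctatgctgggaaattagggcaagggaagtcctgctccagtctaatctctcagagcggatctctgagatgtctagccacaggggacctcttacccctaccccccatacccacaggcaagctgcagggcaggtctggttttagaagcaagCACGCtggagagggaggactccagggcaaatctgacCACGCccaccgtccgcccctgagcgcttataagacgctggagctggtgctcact
Bnip3 promoter, chr7:138909520-138909756, minus strand: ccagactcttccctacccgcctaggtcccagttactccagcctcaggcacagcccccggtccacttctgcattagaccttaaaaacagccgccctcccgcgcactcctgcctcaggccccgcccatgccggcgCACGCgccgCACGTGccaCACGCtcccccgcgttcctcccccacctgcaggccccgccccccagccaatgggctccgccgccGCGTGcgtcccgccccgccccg
Ankrd37 promoter, chr8:45999868-46000100, minus strand: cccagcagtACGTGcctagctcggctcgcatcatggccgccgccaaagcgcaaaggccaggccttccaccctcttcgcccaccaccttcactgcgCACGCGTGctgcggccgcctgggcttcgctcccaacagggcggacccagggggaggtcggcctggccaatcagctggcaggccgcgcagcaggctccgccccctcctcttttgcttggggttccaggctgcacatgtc
Among the 7 members found in the RefSeq promoter table (Epas1 was the other one), ACGTG or GCGTG occurred on either strand in all 7 windows of 300 bases (250 before to 50 after the start), against 43.8% of 32851 mouse promoters. ACGTG was in 5 of the 7 (19.6% of all promoters), and 6 of the 7 held at least 2 matches (20.6% of all promoters). The Bnip3 window held the most, with 5 matches, followed by Ankrd37 with 4 and Hif1a with 3. In Bnip3 a pair of matches read on opposite strands share the palindrome CACGTG, which is also the E-box bound by other factors. In Adm both matches were GCGTG on the opposite strand, starting 90 and 54 bases before the start. Egln3 held 1 match, ACGTG starting 229 bases before the start. A match in these letters is a description and does not show that HIF binds there.

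Levels are normalised counts per mega count (CPM). Libraries held 22.4 to 32.2 mega counts in muscle, 16.5 to 22.7 in fat and 23.6 to 28.5 in hypothalamus, where all oxaliplatin libraries had fewer counts than all vehicle ones. The tissues held their defining transcripts: 6 muscle-fibre genes summed to 124658 to 171340 CPM in muscle, 8 adipocyte genes to 14018 to 21590 CPM in fat, and 5 neuronal genes to 1801 to 2634 CPM in hypothalamus. Some libraries stood apart. The muscle library of oxaliplatin mouse 5 is given vehicle as its treatment in the labels, against its own title. It was counted by its title, which the sizes stated for the groups bear out. In fat, vehicle mouse 4 held 121263 CPM of muscle-fibre transcripts, against 13.2 to 3000 CPM in the other 6 fat libraries. In fat and in hypothalamus, the oxaliplatin library numbered 5 lay near the vehicle mice for many members.

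The comparison of fat with hypothalamus in the vehicle mice alone, which the choice of members did not use, showed differences in most of the 8 genes. Epas1 was 2.26-fold higher in fat, while Hif1a was 1.58-fold higher in hypothalamus. Adm, a peptide hormone that widens vessels and tightens endothelial barriers, was 8.07-fold higher in fat, and Bnip3, a mitochondrial receptor for mitophagy, 4.0-fold higher. In the other direction, Ankrd37, a small ankyrin-repeat protein, was 2.96-fold higher in hypothalamus, and Egln3 1.91-fold higher. All of these passed the edgeR quasi-likelihood test at an adjusted p under 0.05, so that 6 of 8 members differed, 3 in each direction. Such differences were the rule between these tissues: 71.7% of 19564 genes passed the same test, 37.5% higher and 34.2% lower in fat.

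In that fit, with both tissues normalised together, Adm was 9.91 ± 0.31 CPM in fat and 1.22 ± 0.07 CPM in hypothalamus (SD, n = 3 each), a log2 ratio of 3.01 ± 0.17 (SE; edgeR adjusted p = 2.92e-06). Bnip3 was 180.4 ± 13.5 and 45.1 ± 1.15 CPM (2.0 ± 0.10, edgeR adjusted p = 1.51e-06). Epas1 was 650.7 ± 74.6 and 289 ± 12.6 CPM (1.17 ± 0.12, edgeR adjusted p = 8.48e-05). For these 3 genes every fat library lay above every hypothalamus library by a wide margin. Ankrd37 was lower in fat, 1.85 ± 0.22 against 5.49 ± 0.77 CPM (-1.57 ± 0.21, edgeR adjusted p = 0.000322), and so was Hif1a, 68.3 ± 7.72 against 108 ± 6.62 CPM (-0.66 ± 0.11, edgeR adjusted p = 0.00121). Egln3 was 3.30 ± 1.05 against 6.30 ± 1.16 CPM (-0.93 ± 0.29, edgeR adjusted p = 0.0197), and lost its call without hypothalamus vehicle mouse 2 or 4 (log2 ratio -0.88 in both). Hif3a (-0.58 ± 0.25, edgeR adjusted p = 0.0744) and Egln1 (0.43 ± 0.18, edgeR adjusted p = 0.0606) did not pass. The ratio of Egln1 was 0.19 without fat vehicle mouse 4, the library with muscle transcripts.

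Per kb of exon, levels can be set roughly side by side across genes. The length used is that of all annotated exon bases of a gene. A gene whose expressed forms are shorter than that is thus given too low a level. Muscle is given beside the other tissues without a test, because its libraries were made with another kit. Epas1 was the most abundant alpha subunit in all 3 tissues of vehicle mice, at 19.7 CPM per kb in muscle, 129.6 in fat and 50.2 in hypothalamus, against 1.82, 12.9 and 17.8 for Hif1a and 0.0681, 0.832 and 1.09 for Hif3a. Epas1 thus made up 90.8% ± 2.24 of the alpha subunit transcripts in muscle (SD, n = 4), 90.4% ± 0.72 in fat (n = 3) and 72.7% ± 0.52 in hypothalamus (n = 3), and Hif1a 8.84% ± 2.07, 9.01% ± 0.80 and 25.8% ± 0.33. Hif3a made up 0.363% ± 0.25, 0.593% ± 0.19 and 1.58% ± 0.34. Of the enzymes, Egln1 was the more abundant everywhere, at 21.4, 30.6 and 20 CPM per kb, against 1.83, 1.38 and 2.30 for Egln3. Among the targets Bnip3 led, at 142 CPM per kb in muscle, 88.6 in fat and 19.4 in hypothalamus. Adm was at 3.39, 6.81 and 0.735, and Ankrd37 at 1.63, 1.33 and 3.47.

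**Figure D1:**
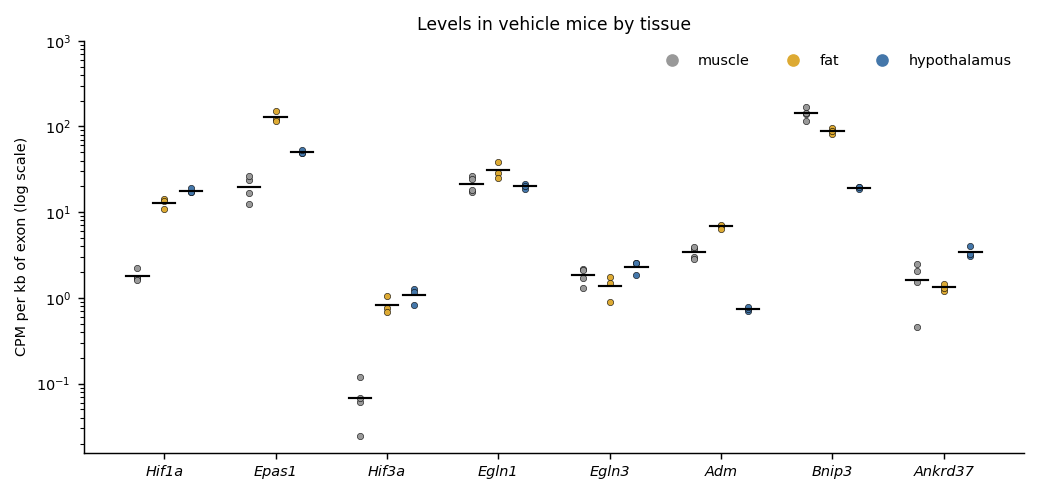
Levels of the 8 genes in vehicle mice, in CPM per kb of exon on a log axis, with 1 point per library and a bar at the mean (4 muscle, 3 fat and 3 hypothalamus libraries). Epas1 lies above Hif1a and Hif3a in each tissue, and Adm in hypothalamus (mean 0.735) lies below all its muscle and fat points.

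The members were chosen with the oxaliplatin and vehicle values known, so what follows is a description. Among the alpha subunits, Hif3a did not move like Hif1a and Epas1 in fat and hypothalamus. Hif1a and Epas1, the subunits that drive transcription, differed little from vehicle or were lower, and their log2 fold changes (oxaliplatin over vehicle) lay between -0.56 and 0.14 over the 3 tissues. Egln3 and Adm were higher in every oxaliplatin library than in any vehicle library of the same tissue, in all 3 tissues. Hif3a was so in fat and hypothalamus. None of the 8 members passed edgeR's adjusted p of 0.05 in any tissue, beside 0.163% of all tested genes in muscle, 0% in fat and 0.148% in the hypothalamus. At an unadjusted p under 0.05 there were 4, 6 and 5 of the 8, beside 9.59%, 26.1% and 10.2% of all genes. DESeq2 called 2 (Egln3 and Adm) in muscle, 5 (Epas1, Hif3a, Egln1, Egln3 and Adm) in fat and 3 (Hif3a, Adm and Bnip3) in hypothalamus, beside 1.72%, 12.2% and 1.35% of genes, and limma-voom called none. Because the members were chosen on this comparison, these counts are given without reading anything from them.

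**Figure D2:**
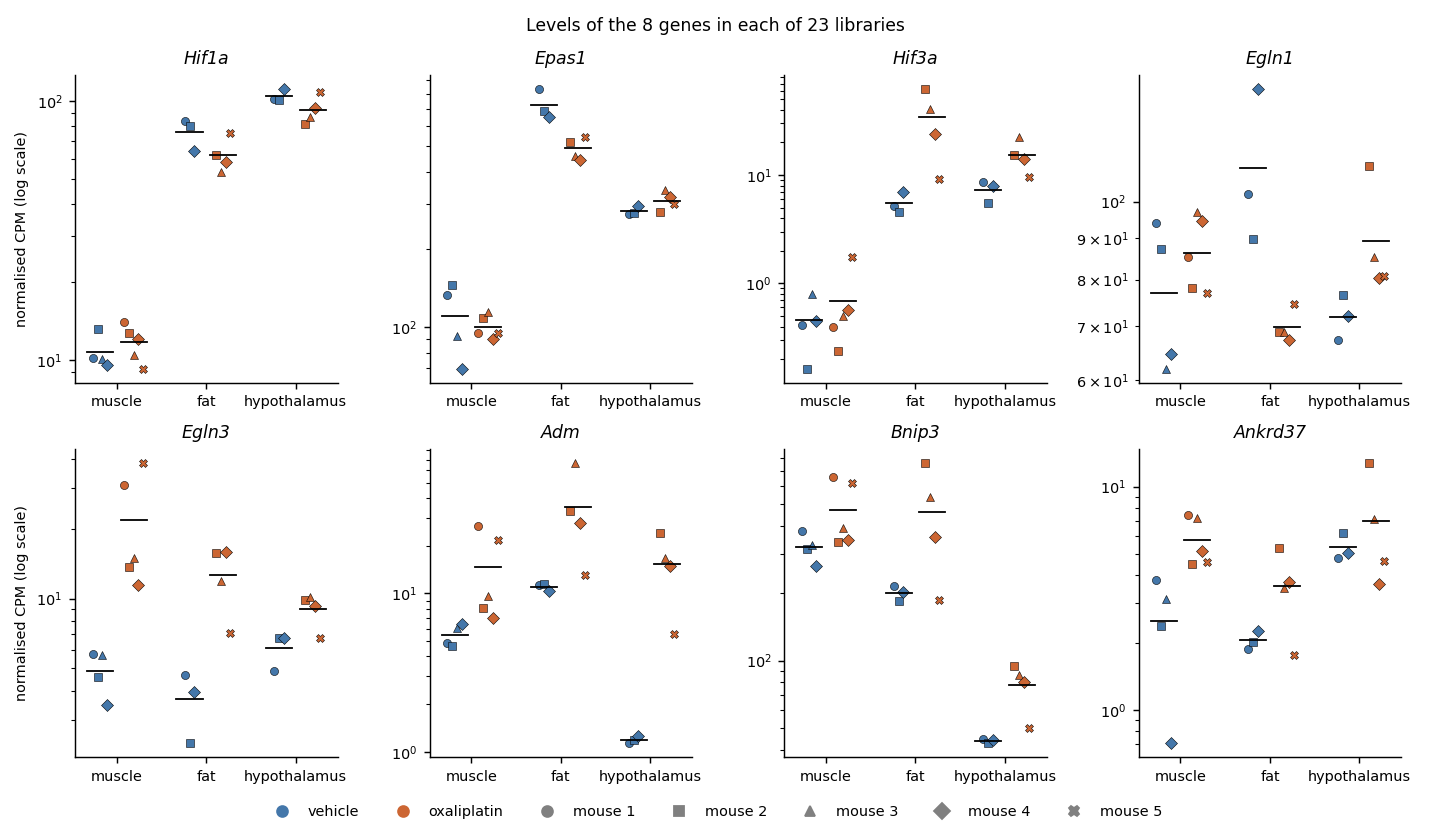
CPM of each gene in each of the 23 libraries, on log axes that differ between genes. Colour gives the arm, the symbol gives the mouse number and bars mark group means. Egln3 and Adm show no overlap between the arms in any tissue, and Hif1a overlaps in all 3.

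Hif1a encodes the subunit known for the acute hypoxic response and for glycolytic targets. In muscle it was at 14.0, 12.7, 10.4, 12.1 and 9.24 CPM in oxaliplatin mice 1 to 5 and at 10.1, 13.2, 10.1 and 9.58 CPM in vehicle mice 1 to 4. In fat, oxaliplatin mice 2 to 5 had 62.0, 53.0, 58.4 and 75.1 CPM and vehicle mice 1, 2 and 4 had 83.8, 80.2 and 64.2 CPM. In hypothalamus the values were 81.8, 87.1, 94.0 and 108 CPM with oxaliplatin and 102.0, 101 and 112 CPM with vehicle. The arms overlapped in each tissue, with log2 fold changes of 0.12 ± 0.15 (SE) in muscle, -0.29 ± 0.16 in fat and -0.18 ± 0.11 in hypothalamus. In fat and hypothalamus the oxaliplatin library nearest to the vehicle ones was mouse 5, the highest of its arm in both.

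Epas1 encodes HIF-2 alpha, a subunit that is abundant in endothelium and fat. Fat was the tissue where it differed: 521, 460.4, 442 and 542 CPM in oxaliplatin mice 2 to 5, all below the 836, 686 and 652 CPM of vehicle mice 1, 2 and 4 (log2 fold change -0.56 ± 0.16). In muscle, values ran from 90.0 to 115 CPM over 5 oxaliplatin mice and from 69.2 to 146 CPM over 4 vehicle mice (-0.13 ± 0.19), so the vehicle mice spanned the wider range. In hypothalamus they were 279, 338, 319.7 and 298 CPM against 274, 276 and 293 CPM (0.14 ± 0.09), also overlapping. In bulk tissue, fewer cells of a type and less RNA per cell cannot be told apart. The summed level of 15 endothelial genes in fat was 1993 to 2595 CPM with oxaliplatin and 1683 to 2358 CPM with vehicle, with 10 of 15 above 0 in log2 fold change and none called, while that of 5 fibroblast genes was 610.2, 1036, 884.0 and 8815 CPM in oxaliplatin mice 2 to 5 and 4342 to 6105 CPM with vehicle. The summed level of 8 adipocyte genes was 18721, 17492, 14018 and 21590 CPM in oxaliplatin mice 2 to 5 and 16452 to 21397 CPM with vehicle, with 2 of 8 above 0, a median log2 fold change of -0.67 and none called. Of all genes in fat, 52.4% lay above 0 and 0% were called. The part of endothelial cells, fibroblasts and adipocytes in the Epas1 values was not tested.

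Hif3a encodes a subunit whose short forms act as inhibitors of the other alpha subunits, and it stood out from its family. In fat it was at 62.9, 40.7, 24 and 9.23 CPM in oxaliplatin mice 2 to 5 and at 5.14, 4.56 and 7.04 CPM in vehicle mice, a log2 fold change of 2.61 ± 0.62 (6.13-fold of the means). The lowest oxaliplatin library, mouse 5, lay above the highest vehicle library by little, and the other 3 were at least 24 CPM. In hypothalamus it was at 15.5, 22.2, 14.2 and 9.59 CPM against 8.55, 5.47 and 7.94 CPM (1.07 ± 0.28), with mouse 5 again lowest and again above all vehicle mice. In muscle the gene was near the limit of detection, at 6 to 59 counts per oxaliplatin library and 4 to 23 per vehicle library (0.60 ± 0.58). The 59 counts came from mouse 5, and without that library the muscle log2 fold change was -0.12.

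The mix of alpha subunit transcripts differed between the arms in fat. Hif3a was 4.91% ± 3.04 of alpha subunit transcripts per kb with oxaliplatin (SD, n = 4) and 0.593% ± 0.19 with vehicle (n = 3), while Epas1 was 84.9% ± 2.03 and 90.4% ± 0.72. In hypothalamus the Hif3a share was 3.12% ± 0.97 with oxaliplatin and 1.58% ± 0.34 with vehicle. The Hif1a share there was 21.5% ± 2.61 and 25.8% ± 0.33. These shares count all transcript forms of a gene, so they do not separate the inhibitory forms of Hif3a from the others.

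Of the hydroxylases, Egln1, the main oxygen sensor that keeps HIF low at rest, went different ways in fat and hypothalamus. In fat it was at 68.8, 68.7, 67.2 and 74.5 CPM with oxaliplatin and 102, 89.9 and 138 CPM with vehicle, without overlap (log2 fold change -0.66 ± 0.16). The highest value, 138 CPM, was that of vehicle mouse 4, and without it the log2 fold change was -0.44, still with every oxaliplatin library lower. In hypothalamus it was at 111, 85.2, 80.4 and 80.8 CPM against 67.2, 76.5 and 72.1 CPM (0.31 ± 0.12), so every oxaliplatin library was higher. Muscle showed overlap, with 76.9 to 96.9 CPM in 5 oxaliplatin mice and 61.9 to 94.0 CPM in 4 vehicle mice (0.17 ± 0.15). The difference between tissues was not tested.

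Egln3, a hydroxylase that HIF itself induces and that feeds back on HIF-2 alpha, was higher in all 3 tissues. In muscle it was at 30.9, 13.7, 14.9, 11.4 and 38.4 CPM in oxaliplatin mice 1 to 5 and at 5.74, 4.60, 5.69 and 3.48 CPM in vehicle mice, a log2 fold change of 2.17 ± 0.39 (4.48-fold of the means). Mice 1 and 5 were highest, and the other 3 still lay at 11.4 CPM or more. In fat, 15.7, 11.9, 15.8 and 7.11 CPM stood against 4.67, 2.37 and 3.96 CPM (1.78 ± 0.36). In hypothalamus, 9.91, 10.2, 9.27 and 6.79 CPM stood against 4.86, 6.77 and 6.76 CPM (0.56 ± 0.19), and there mouse 5 was barely above vehicle mice 2 and 4. Set to vehicle, as its treatment entry has it, muscle mouse 5 lowered the muscle log2 fold change of Egln3 to 0.61.

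Adm encodes adrenomedullin. In hypothalamus it was nearly silent in vehicle mice, at 1.13, 1.19 and 1.26 CPM (33, 33 and 34 counts), and at 23.9, 16.7, 14.9 and 5.55 CPM in oxaliplatin mice 2 to 5 (594, 406, 387 and 135 counts). The log2 fold change was 3.68 ± 0.50, or 12.8-fold of the means, and the lowest oxaliplatin library, mouse 5, was still far above the highest vehicle library. In fat it was at 33, 66.4, 27.7 and 13.1 CPM against 11.3, 11.4 and 10.3 CPM (1.67 ± 0.50), where mouse 3 was highest and mouse 5 close to vehicle. In muscle it was at 26.8, 8.10, 9.60, 6.95 and 21.8 CPM against 4.88, 4.64, 6.04 and 6.39 CPM (1.42 ± 0.41). Mice 1 and 5 carried most of the muscle difference, and mouse 4 was just above the highest vehicle mouse. With mouse 5 set to vehicle the muscle value was 0.55.

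The genes of the adrenomedullin receptor were measured as well. Of Calcrl (the receptor), Ramp1, Ramp2 and Ramp3 (its partner subunits) and Ackr3 (a scavenging receptor), none passed the edgeR test in any tissue (beside 0.163%, 0% and 0.148% of all genes in muscle, fat and hypothalamus). In the same order 0, 2 and 1 of the 5 had an unadjusted p under 0.05, beside 9.59%, 26.1% and 10.2% of all genes. Ramp2, a partner that makes Calcrl an adrenomedullin receptor, was at 21.7 ± 1.65 CPM with oxaliplatin and 15.7 ± 1.33 CPM with vehicle in hypothalamus (SD, n = 4 and 3). Every oxaliplatin library was higher (log2 fold change 0.47 ± 0.11, edgeR adjusted p = 0.237). Of the 5 genes there, 2 lay above 0, with a median of -0.04. The 5 summed to 72.9 to 94.3 CPM with oxaliplatin and 79.4 to 86.8 CPM with vehicle. In fat Ramp2 was at 40.9 ± 8.87 and 57.4 ± 6.64 CPM (-0.49 ± 0.18, edgeR adjusted p = 0.159).

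Bnip3, a mitochondrial outer membrane protein that marks mitochondria for mitophagy, was the most abundant of the targets. In muscle it was at 659, 338, 391, 344 and 621 CPM in oxaliplatin mice 1 to 5 and at 380.2, 316, 328 and 265 CPM in vehicle mice (0.55 ± 0.22). The arms overlapped, since mice 2 and 4 lay below vehicle mouse 1, and mice 1 and 5 were again highest. In fat, 761, 538, 358 and 186 CPM stood against 215, 185 and 202 CPM (1.2 ± 0.44). Mice 2 to 4 were all above vehicle, and mouse 5 was within its range. In hypothalamus, 94.4, 86.0, 80.1 and 49.9 CPM stood against 44.8, 42.6 and 44.3 CPM (0.82 ± 0.19), with no overlap.

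Ankrd37 was a low transcript, at 25 to 316 counts per library. In muscle it was at 7.45, 4.48, 7.25, 5.15 and 4.60 CPM with oxaliplatin and 3.82, 2.36, 3.14 and 0.707 CPM with vehicle, without overlap (1.22 ± 0.38). Mouse 1 was again highest, but mouse 5 was among the lowest of its arm. In fat, 5.30, 3.51, 3.75 and 1.76 CPM stood against 1.87, 2.02 and 2.26 CPM (0.80 ± 0.36), with mouse 5 the lowest of all 7 libraries. In hypothalamus, 12.7, 7.16, 3.65 and 4.65 CPM stood against 4.79, 6.19 and 5.06 CPM (0.40 ± 0.40). Mice 2 and 3 lay above all vehicle mice and mice 4 and 5 below, and without mouse 2 the log2 fold change was -0.05.

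**Figure D3:**
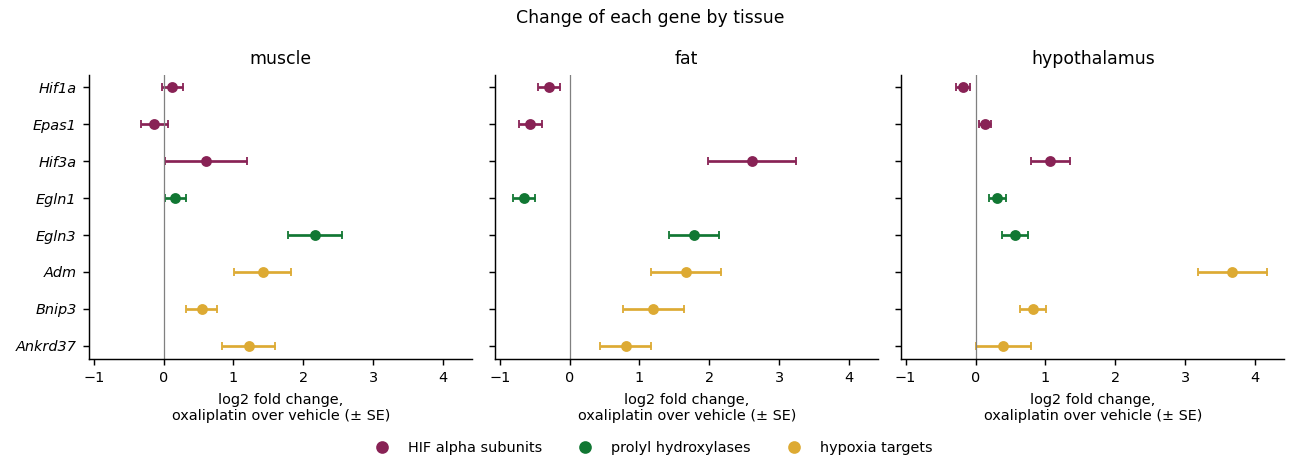
Log2 fold change of oxaliplatin over vehicle for each gene in each tissue, as points with bars of ± SE from the edgeR fit, coloured by role. Hif1a and Epas1 lie between -0.56 and 0.14, and Egln3 and the 3 targets lie between 0.40 and 3.68. Of the same roles, Hif3a lies at 0.60, 2.61 and 1.07 in muscle, fat and hypothalamus, and Egln1 at 0.17, -0.66 and 0.31.

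Side by side, the median log2 fold change of the 3 targets in muscle, fat and hypothalamus was 1.22, 1.2 and 0.82. That of the 3 alpha subunits was 0.12, -0.29 and 0.14, with Hif3a apart at 0.60, 2.61 and 1.07. The median over all tested genes was -0.01, 0.03 and 0.01. Counting every member, 3 of 8 in muscle, 3 in fat and 5 in hypothalamus had all oxaliplatin libraries above all vehicle libraries, beside 2.18%, 10.3% and 5.58% of all genes. All-lower members were 0, 2 (Epas1 and Egln1) and 0, beside 1.7%, 11.2% and 4.35%. Leaving out mouse 5 moved the calls. This library is singled out because it lay near the vehicle mice for many members, so more calls without it were likely from the outset. Without it in fat, 7 of 8 members were called by edgeR (5 higher and 2 lower, all but Hif1a), beside 25.5% of 19472 genes (12% higher and 13.5% lower). Without it in hypothalamus, 3 were called (Hif3a, Adm and Bnip3, all higher), beside 3.49% of 18781 genes (2.12% higher). Nothing is read from these counts either.

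The rest of the pathway was read from 61 further genes in 3 lists: 12 components of the HIF machinery, 18 targets of glucose uptake and glycolysis, and 31 other targets. These lists, like all other lists in this report, were chosen with earlier results of these data known. Their calls and shares are thus a description and no independent support. In muscle edgeR called 2 of the 60 tested, both higher (beside 0.115% of all genes). In fat it called 0 of 60 (0%), and in hypothalamus 3 of 61, all higher (0.148%). An unadjusted p under 0.05 was reached by 12, 27 and 31 of them, beside 9.59%, 26.1% and 10.2% of all genes, and DESeq2 called 6, 22 and 14, beside 1.72%, 12.2% and 1.35%. Median log2 fold changes were 0.06, -0.20 and 0.27 in the same order, and 39, 26 and 52 genes were above 0, beside 47.8%, 52.4% and 52% of all genes. Differences between tissues were not tested. The calls rest on few libraries. In hypothalamus, 1 gene was called without oxaliplatin mouse 3 or 4, 0 without any 1 of the vehicle mice and 14 without oxaliplatin mouse 5 (beside 3.49% of all genes in that fit). In fat 28 were called without oxaliplatin mouse 5 (beside 25.5%), and in muscle 0 with mouse 5 set to vehicle and 1 without any 1 library other than vehicle mouse 4.

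In hypothalamus, Vegfa, the main growth factor of vessels, rose from 39.2, 33.7 and 32.4 CPM in vehicle mice to 97.8, 94.5, 73.6 and 78.0 CPM in oxaliplatin mice 2 to 5 (log2 fold change 1.29 ± 0.13, edgeR adjusted p = 0.00738). Cxcl12, a chemokine made by stroma and endothelium, rose from 75.5, 81.2 and 86.8 to 149, 230.1, 219.9 and 205 CPM (1.31 ± 0.15, edgeR adjusted p = 0.0136). Slc2a1, the glucose transporter of the blood-brain barrier, rose from 120.1, 121 and 131 to 353, 352, 289 and 203 CPM (1.27 ± 0.18, edgeR adjusted p = 0.0425). For all 3 genes the lowest oxaliplatin library was well above the highest vehicle one, mouse 5 included. Among the glycolysis genes 16 of 18 lay above 0, with a median of 0.29. Slc16a3, a lactate exporter, was at 8.5 ± 2.23 CPM with oxaliplatin and 3.26 ± 0.37 CPM with vehicle (1.38 ± 0.23), and Ldha, which makes lactate, at 265 ± 40.7 and 154 ± 24.2 CPM (0.78 ± 0.15), neither called. Of the other targets 28 of 31 lay above 0 (median 0.30), among them Kdm3a, a histone demethylase (0.80 ± 0.13, not called). The machinery itself lay near 0, with a median of 0.07 over 12 genes: Cited2, a HIF inhibitor, was at 0.44 ± 0.14, Vhl at 0.27 ± 0.11 and the coactivator Crebbp at 0.14 ± 0.08, none called.

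Muscle had 2 calls, both in the control of glycolysis. Pfkl, a phosphofructokinase subunit, rose from 9.89, 9.98, 10.8 and 13.0 CPM to 17.5, 18.9, 18.6, 21.6 and 20.9 CPM (0.83 ± 0.12, edgeR adjusted p = 0.0278). Pfkfb3, which makes the activator of that enzyme, rose as well (1.67 ± 0.15, edgeR adjusted p = 0.00106). For neither were mice 1 and 5 set apart from mice 2 to 4, unlike for Adm, Egln3 and Bnip3. The rest of the glycolysis list lay near 0 (median 0.06, 14 of 18 above), with Slc2a1 at 0.31 ± 0.13. Ak4, a mitochondrial adenylate kinase, was at 1.52 ± 0.27 (edgeR adjusted p = 0.0541), the transcriptional repressor Bhlhe40 at 0.70 ± 0.16 and Errfi1, an inhibitor of EGF receptor signalling, at 0.76 ± 0.19. None of these was called. Machinery genes had a median of 0.00 in muscle, with Cited2 at 0.32 ± 0.21, Vhl at -0.26 ± 0.21 and Crebbp at 0.17 ± 0.14.

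Fat showed known targets on both sides of 0, and none was called with all libraries. Slc2a1 was at 49.9, 48.4, 36.8 and 23.2 CPM with oxaliplatin and 14.8, 15.7 and 15 CPM with vehicle (1.39 ± 0.27). Kdm3a was at 75.7, 73.8, 67.9 and 38.9 CPM against 34.8, 36.5 and 32.4 CPM. Both were higher in every oxaliplatin library. In the other direction, Bhlhe40 was 65.1 ± 8.64 against 132 ± 18.5 CPM (-1.02 ± 0.15), and Insig2, a brake on sterol synthesis, 21.6 ± 2.84 against 34.2 ± 5.72 CPM (-0.66 ± 0.16). Pfkfb4 (-1.74 ± 0.38) and Ldha (-1.19 ± 0.34) were lower too, as were 15 of 18 glycolysis genes (median -0.58). Muscle-fibre transcripts in vehicle mouse 4 move with this list: without that library the median was -0.30 and 7 of 18 lay above 0. Of the 12 machinery genes 6 lay above 0, with a median of -0.01. The 3 with the smallest p belong to the VHL ligase and were lower in every oxaliplatin library: Elob (-0.50 ± 0.12), Vhl (-0.46 ± 0.12) and Eloc (-0.72 ± 0.21). Cul2 and Rbx1, also ligase genes of this list, overlapped between the arms. The coactivators Ep300 (0.24 ± 0.13) and Crebbp (0.18 ± 0.12) were higher in every oxaliplatin library. Averaged over the 12 genes, log2 CPM relative to the vehicle mean was 0.26 in vehicle mouse 4 and -0.10 and -0.16 in vehicle mice 1 and 2. Of all genes in fat, 11.2% were lower and 10.3% higher in every oxaliplatin library.

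**Figure D4:**
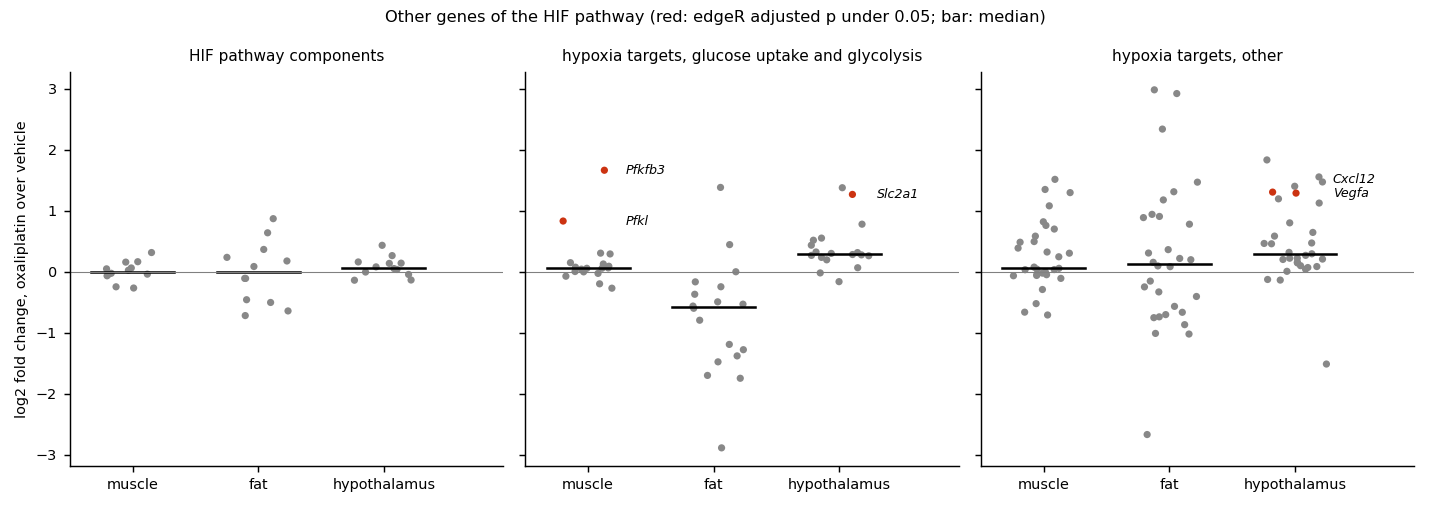
Log2 fold change of oxaliplatin over vehicle for the 61 further pathway genes in 3 lists, with 1 point per gene tested, a bar at the median and red for an edgeR adjusted p under 0.05. Called genes are named (2 in muscle and 3 in hypothalamus), and the glycolysis list has its median at -0.58 in fat and 0.29 in hypothalamus.

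Transcripts of red blood cells differed between libraries. In each tissue the oxaliplatin libraries with the lowest erythroid sums had the highest Adm and Bnip3. This did not hold for every target, since Ankrd37 in muscle mouse 5 was 4.60 CPM, among the lowest of its arm. The summed level of Hbb-bs, Hba-a1, Hba-a2 and Alas2 in muscle was 74.6 and 92.1 CPM in oxaliplatin mice 1 and 5, the highest in Adm, Egln3 and Bnip3. It was 1457, 652 and 1656 CPM in mice 2 to 4 and 507 to 851 CPM in vehicle mice. In fat it was 187, 294, 514 and 1393 CPM in oxaliplatin mice 2 to 5 and 645 to 889 CPM with vehicle, and in hypothalamus 89.9, 69.8, 237 and 1214 CPM against 615 to 873 CPM. In fat and in hypothalamus the oxaliplatin library numbered 5, the nearest to vehicle in Adm and Bnip3, had the highest erythroid sum. In muscle the library of that number had a low sum, and its Adm, 21.8 CPM, was among the 2 highest. None of the 4 genes was called in any tissue, beside 0.163%, 0% and 0.148% of all genes in muscle, fat and hypothalamus. None of the 4 was at 0 in any library. The part of blood content in the members' values was not tested.

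**Figure D5:**
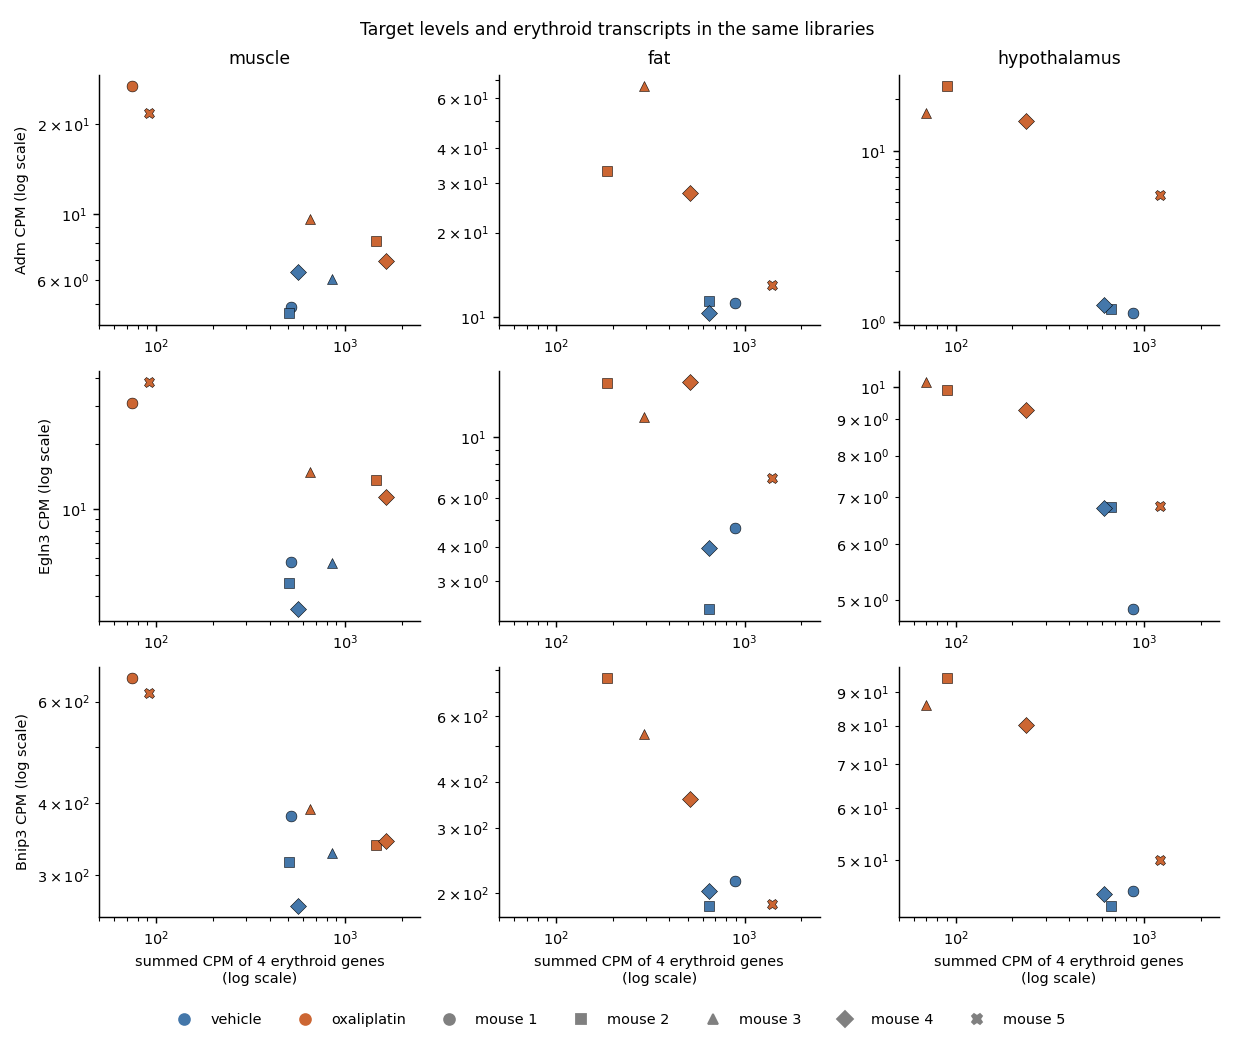
CPM of Adm, Egln3 and Bnip3 (rows, log axes) against the summed CPM of 4 erythroid genes (log axis) in each library of the 3 tissues (columns), coloured by arm with a symbol per mouse number. The oxaliplatin libraries with the lowest erythroid sums, 74.6 and 92.1 in muscle and 69.8 and 89.9 in hypothalamus, have the highest Adm.

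Genes of glucocorticoid response, and genes of mitophagy and of the FOXO factors that also act on Bnip3, were read in the same libraries. Both lists were chosen with earlier results of these data known, so their counts are a description. Of 14 glucocorticoid-responsive genes, 13, 14 and 14 had a log2 fold change above 0 in muscle, fat and hypothalamus. The share of all genes above 0 was 47.8%, 52.4% and 52%. Medians of the 14 were 0.51, 1.12 and 0.71. An unadjusted p under 0.05 was reached by 6, 10 and 14 of them, beside 9.59%, 26.1% and 10.2% of all genes. By edgeR 0 were called in muscle and in fat, beside 0.163% and 0% of all genes (10 in fat without oxaliplatin mouse 5, beside 25.5% in that fit). In hypothalamus 1 was called (beside 0.148%), Cebpd, a transcription factor of the acute-phase response (2.55 ± 0.34, edgeR adjusted p = 0.0483). In fat the sum of the 14 genes was 9755, 8157, 6421 and 2910 CPM in oxaliplatin mice 2 to 5 and 1982 to 2816 CPM with vehicle. Hif3a (62.9, 40.7, 24 and 9.23 CPM) and Bnip3 (761, 538, 358 and 186 CPM) had the same order over these oxaliplatin libraries, and the erythroid sum the reverse. The other members did not have that order. Adm was at 33, 66.4, 27.7 and 13.1 CPM, Egln3 at 15.7, 11.9, 15.8 and 7.11 CPM, and Ankrd37 at 5.30, 3.51, 3.75 and 1.76 CPM. In muscle the sum of the 14 was highest in mice 1 and 5, at 2254 and 2900 CPM. It was 1428 to 1738 CPM in mice 2 to 4 and 1207 to 1641 CPM with vehicle. Of 11 FOXO and mitophagy genes, 9 of 11 tested in muscle, 8 of 11 in fat and 7 of 10 in hypothalamus lay above 0. Of all genes, 47.8%, 52.4% and 52% did. Medians of the list were 0.23, 0.54 and 0.12. None of the list was called, beside 0.163%, 0% and 0.148% of all genes. All oxaliplatin libraries were higher for 1, 3 and 4 of the list, beside 2.18%, 10.3% and 5.58% of all genes. All were lower for 0, 2 and 1, beside 1.7%, 11.2% and 4.35%. Depp1, a FOXO target in that list, was at 2.49 ± 0.57 in muscle, 2.36 ± 0.57 in fat and 4.27 ± 0.59 in hypothalamus, higher in every oxaliplatin library and not called by edgeR. The part of either list in the members' values was not tested.

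Endothelial transcripts were higher beside Adm in hypothalamus. The marker lists too were chosen with earlier results of these data known, so what follows is a description. All 15 endothelial markers lay above 0 there (median 1.07) and 6 were called: Pecam1, Flt1, Eng, Vwf, Robo4 and Ptprb. Of all genes there, 52% lay above 0 and 0.148% were called. Their sum was 669 to 1091 CPM with oxaliplatin and 350.5 to 368 CPM with vehicle, while the sum of 5 neuronal genes was 1801 to 2634 and 2136 to 2310 CPM. Of 4 oligodendrocyte genes 0 lay above 0 (median -0.49), and their sum was 1491 to 3717 against 3373 to 4143 CPM. Of 5 astrocyte genes 1 lay above 0 (median -0.20, 1157 to 1318 against 1115 to 1435 CPM). Of 6 macrophage and microglia genes 1 did (median -0.23, 113 to 149 against 132 to 174 CPM). No gene of these glial lists was called. In muscle the endothelial sum was 446 to 483 CPM against 311 to 405 CPM. There 13 of 15 markers lay above 0 and Pecam1 was called (0.68, edgeR adjusted p = 0.0443). Of all muscle genes, 47.8% lay above 0 and 0.163% were called. In hypothalamus the log2 fold change of Adm was 3.68 ± 0.50 (SE), from 33 or 34 counts per vehicle library. Of the 6 called endothelial markers there, Vwf had the largest, 2.97. The difference between Adm and Vwf was not tested. Pericyte transcripts, from the cells that wrap small vessels, were higher beside the endothelial ones in hypothalamus. Their 5 genes summed to 231, 287, 257 and 272 CPM in oxaliplatin mice 2 to 5 and to 201 to 219.5 CPM with vehicle. Of these 4 of 5 lay above 0, and Kcnj8, a potassium channel, was called (1.61, edgeR adjusted p = 0.0193). The part of endothelial or pericyte RNA in the Adm values was not tested.

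Across the 23 libraries, each tissue centred on its own mean, the genes most like each member were sought among 10553 genes (Pearson's r of log2 CPM, a description over libraries that share arms and depth). Adm was most like the endothelial genes Pecam1 (r = 0.93), Clec14a (0.91) and Apold1 (0.91). Hif3a was most like Jade2 (0.91), Glul (0.91), which makes glutamine and responds to glucocorticoids, and Bcl2l1 (0.90), an inhibitor of apoptosis. Egln3 was most like Cdkn1a (0.91), the cell-cycle inhibitor p21, Rgs12 (0.88) and Fkbp5 (0.87), a glucocorticoid-induced co-chaperone. Bnip3 went with Mocs1 (0.92), Inpp5k (0.92) and Pcif1 (0.92), and Ankrd37, less closely, with Eif4a-ps4 (0.85), Ppp1r1a (0.85) and Rps2 (0.83). For Hif1a the closest was Itpkb (0.80), then Wdyhv1 (0.78) and Trib2 (0.77). Epas1 was most like Ndufb6 (0.91), a subunit of respiratory complex I, Fam162a (0.90) and Irak2 (0.89), and Egln1 like Fundc2 (0.87), Selenow (0.86) and Epm2a (0.85). In fat, Egln1 was highest in vehicle mouse 4, the library with muscle-fibre transcripts. Vehicle fat libraries ran from 22.6 to 40.8 CPM for Fundc2, 166 to 350 for Selenow and 16.5 to 40.5 for Epm2a. Vehicle muscle means were 189, 1382 and 16.3 CPM. The part of that fat library in these likenesses was not tested. Within the family, Bnip3 had r = 0.83 with Hif3a, 0.82 with Adm and 0.78 with Egln3, whereas Hif1a had r = -0.75 with Hif3a and Epas1 had r = -0.52.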

How the data were processed

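RNA sequencing of 3 tissues gave 23 libraries, 1 per sample. Per the labels' protocols, RNA with an integrity number above 8 was used, the Clontech SMARTer kit served for muscle and a RiboErase kit, which removes ribosomal RNA, for the other tissues. Per the submitters' processing notes, STAR 2.5.1a (an aligner), Partek and DESeq2 were used. The authors deposited expected counts, estimated per gene and not always whole (in muscle 45.7% of values were not, in fat 41.4%, in hypothalamus 49.1%). They were rounded first, since the planned tests assumed counts. Every row summed to at least 10. The build of the genome was not given in the sources used here. Starts of genes equal those of GENCODE M21 (GRCm38) for at least 99.4% of shared identifiers, and positions and exon lengths come from that annotation.

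Each tissue was fitted alone in edgeR 4.0.16 (R 4.3.3): filterByExpr (minimum count 10, total 15), TMM factors, robust quasi-likelihood F test, Benjamini-Hochberg adjustment over all tested genes (14737 in muscle, 19870 in fat, 18941 in hypothalamus) and 0.05 as the threshold. SE values are the absolute log2 fold change over the square root of F. CPM use TMM-scaled library sizes. The fit of vehicle fat against vehicle hypothalamus tested 19564 genes. The fits were tested on simulated counts. Groups followed the titles. The labels do not say that libraries of a group come from separate cages or days, so p-values measure the spread between these samples. No pair of libraries within a group agreed within sampling noise (34 pairs, lowest chi-square per degree of freedom 7.37).

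The 8 members and all lists were chosen with earlier results of these data known. Named genes are the members, the called genes and the 3 of smallest p of each pathway list in each tissue (the text names a part of these), and the 3 genes most like each member among those with a mean of at least 1 CPM in every tissue. Alternatives were DESeq2 1.42.0 size factors, DESeq2, limma-voom (limma 3.58.1), no filter, a mean of at least 1 CPM, mouse number as a block, each library left out, and muscle mouse 5 set to vehicle. Promoters are from RefSeq.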

Additional observations from a re-analysis of the deposited data

Results flagged for a closer look

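Of 32 groups of 4 or 5 libraries checked for a library far from the rest, 3 had one, and chance alone gives about 1 in 20. Hif1a in muscle was 13.2 CPM in vehicle mouse 2, away from the other 3 vehicle mice at 9.58 to 10.1 CPM. Hif3a in muscle was 1.75 CPM in oxaliplatin mouse 5, the library whose treatment entry reads vehicle, against at most 0.568 CPM in the other 4 oxaliplatin mice. Egln1 in hypothalamus was 111 CPM in oxaliplatin mouse 2, against 80.4 to 85.2 CPM in the other 3, and this library also had the lowest sum of oligodendrocyte transcripts (1491 CPM, against 3046 to 4143 CPM in the other 6 libraries).

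Egln1 also differed in direction between tissues: every oxaliplatin library was higher than vehicle in hypothalamus (log2 fold change 0.31) and every one was lower in fat (-0.66). That difference was not tested.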

How the results depend on the processing

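Of 24 changes of members (8 genes in 3 tissues), 21 kept their sign in every setting. The exceptions were Ankrd37 in hypothalamus (-0.05 without oxaliplatin mouse 2), Epas1 in muscle (0.04 without vehicle mouse 2) and Hif3a in muscle (-0.12 without oxaliplatin mouse 5, -0.77 with it set to vehicle). Members called between vehicle fat and hypothalamus numbered 6, and 6 to 8 under the other settings, with 5 to 7 when a library was left out. Counts of called genes moved more, and the cause was not tested. In muscle 24 genes were called: 254 by DESeq2, 42 with no filter, 0 with mouse 5 set to vehicle and 2 to 17 with a library left out. The wider pathway there had 2, and 6, 0 and 1 to 2 by DESeq2, mouse 5 as vehicle and libraries left out. In fat 0 were called by edgeR (5178 at an unadjusted p under 0.05), 2428 by DESeq2, 0 by limma-voom and 0 to 4969 with a library left out (6 without oxaliplatin mouse 2, 4969 without mouse 5), and of the pathway 0, 22 by DESeq2 and 0 to 28. In hypothalamus 28 were called, 255 by DESeq2, 16 by limma-voom and 0 to 655 with a library left out, and of the pathway 3, 14 by DESeq2, 5 with no filter and 0 to 14.

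Mouse numbers name different animals in the arms. Same-numbered libraries did not deviate together (r from -0.25 to 0.23 in muscle, -0.31 and -0.19 in fat, 0.01 and 0.04 in hypothalamus). With the mouse number as a replicate block, muscle had 3 genes called and 1 of the pathway, fat 0 and 0, hypothalamus 37 and 0, and the vehicle comparison 6 members (r from 0.03 to 0.05). Depth limits Hif3a in muscle, at 4 to 59 counts per library.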
